A study of Mus musculus with 15 samples.

Results

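The interferon-inducible GTPases examined here are 8 mouse genes of the guanylate-binding protein (GBP) and immunity-related GTPase (IRG) families: Gbp2, Gbp3, Gbp5, Gbp7, Iigp1, Igtp, Irgm1 and Irgm2. A gene was taken from probe sets whose platform annotation gives that symbol alone, using the probe set with the highest mean over all arrays. By this rule 5 of the 8 genes were measured (Gbp3, Gbp5, Gbp7, Iigp1 and Irgm1) out of 19937 genes tested, each on 1 probe set. Gbp2 is listed on a probe set together with a neighbouring gene, and Igtp and Irgm2 are listed together on another, so these 3 genes have no probe set of their own and their levels are not analysed here. The arrays (Affymetrix Mouse Gene 1.0 ST) came from a study of the genes that answer to dectin-1 and NFAT in dendritic cells. The cells were D1, a long-term dendritic cell line from the spleen of C57BL/6 mice, so that all groups stand for 1 line. The 5 groups hold 3 arrays each: curdlan with FK506 for 4 h, curdlan for 4 h, curdlan with FK506 for 2 h, curdlan for 2 h, and nontreated cells. Curdlan, a particulate beta-glucan that binds dectin-1, was given at 10 µg/ml, and FK506 is an inhibitor of calcineurin, the phosphatase that lets NFAT enter the nucleus. The same 3 nontreated arrays served both times, and cells given FK506 without curdlan are not analysed here. The replicates are labelled biological and nothing more is said of their origin, so the p-values measure the spread between these arrays.

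GBP and IRG proteins are cytoplasmic GTPases that cells make in quantity after interferon signalling. They assemble on the vacuoles of intracellular parasites and bacteria, strip or rupture the vacuole membrane, and feed bacterial products to the inflammasome. In the IRG family, Irgm1, Irgm2 and Igtp sit on the cell's own membranes and hold back effector members such as Iigp1, while the GBPs are anchored in part by prenylation. Type I interferons reach these genes through the interferon-stimulated response element (ISRE), bound by a complex of STATs with an IRF and by other IRFs, and interferon-gamma reaches them through the gamma-activated site (GAS), bound by STAT dimers.

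The promoters are shown because each of those searched carries the ISRE letters before the start. Sequences are RefSeq windows (build GRCm38.p6) from 250 bases before to 50 after the annotated start, matched by symbol for 7 of the 8 genes. No window of Iigp1 was searched, so the motif results for members do not cover Iigp1. The motifs searched on both strands were ISRE as GAAA, any 2 bases and GAAA again, which reads TTTC, any 2 bases and TTTC on the opposite strand, GAS as TTC, any 3 bases and GAA, which reads alike on both strands, and the NFAT core as GGAAAA. For the 4 measured genes that were searched, the 80 bases around the ISRE letters are given 5′ to 3′ along the gene, with the ISRE letters in capitals.
Gbp5, chr3:142496734-142496813, plus strand: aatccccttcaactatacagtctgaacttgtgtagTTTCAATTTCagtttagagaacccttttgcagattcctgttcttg
Gbp7, chr3:142530248-142530327, plus strand: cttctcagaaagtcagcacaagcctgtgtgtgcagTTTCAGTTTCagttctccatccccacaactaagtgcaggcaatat
Gbp3, chr3:142559964-142560043, plus strand: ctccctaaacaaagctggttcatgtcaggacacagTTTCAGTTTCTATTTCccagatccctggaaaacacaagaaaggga
Irgm1, chr11:48871421-48871500, minus strand: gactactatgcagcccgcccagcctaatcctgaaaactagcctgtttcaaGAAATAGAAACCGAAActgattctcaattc

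The ISRE letters were found in all 7 genes searched, beside 3.99% of 27025 genes with a window (3.44% of 32851 windows). The bases around the match are nearly the same in Igtp and Irgm2. Gbp3 and Irgm1 each have 2 matches that overlap, which read as 3 GAAA units on 1 strand. The match lies at -165 to -156 from the start in Gbp5, at -53 to -44 in Gbp7, at -45 to -30 in Gbp3 and at -30 to -15 in Irgm1. Gbp3 has 2 annotated windows, and only 1 of them holds the match. GAS letters, held by 8.3% of windows, occur at 2 places in Gbp5 and at 2 in Gbp7, and at none in Gbp3 or Irgm1. The NFAT core, a short motif held by 23.4% of windows, was found at 2 places in Gbp3 and at 1 in Gbp7, where it overlaps a GAS match. A match describes letters only: among 605 tested genes with ISRE letters in a window, 10.1% passed the test as higher with curdlan at 4 h and 5.29% as lower with FK506 at 4 h, beside 5.12% and 1.51% of the 15561 tested genes with any window.

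**Figure D1:**
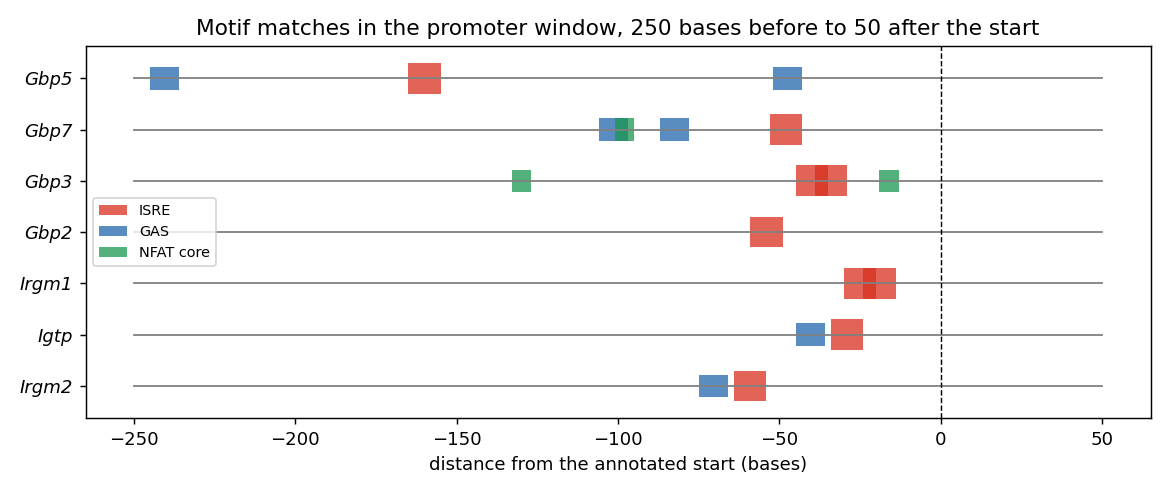
Positions of motif matches in the RefSeq promoter windows of 7 genes, in bases from the annotated start (dashed line). Boxes are ISRE, GAS and NFAT core letters on either strand; the Gbp5 ISRE letters (-165 to -156) lie farther from the start than those of the other genes.

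The arrays within a group were alike, and 2 stood apart from their groups. Nontreated replicate 1 and curdlan 2 h replicate 3 received array weights of 0.0781 and 0.119, and some of the results that depend on them are given without them. The label as dendritic cells was set against markers: Itgax, Cd74 and H2-Aa averaged 12.2, 12.8 and 12.8 on the log2 scale and 11 of 12 conventional dendritic cell markers lay above the median gene (6.76), Flt3 at 5.83 being the exception. Of the markers of other cells, 0 of 4 for B cells, 1 of 6 for T cells (Il7r), 1 of 6 for NK cells (Klrd1), 1 of 5 for plasmacytoid dendritic cells (Bst2), 3 of 5 for fibroblasts and 4 of 5 for macrophages (Adgre1, Mertk, Csf1r and Cd68) lay above that median. One macrophage marker moved with FK506: Mertk was lower by a log2 value of -2.20 at 4 h and -1.53 at 2 h, while the mean of the 5 macrophage markers ranged between 9.05 and 9.51 over the groups. The part of this in the results below was not tested, and in RNA from whole cultures fewer cells that express a gene cannot be told apart from less RNA per cell.

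Gbp5 had the widest span of group means among the measured genes (2.47 on the log2 scale), with its 5 groups in separate ranges. Gbp5, a GBP known for promoting NLRP3 inflammasome assembly, had log2 levels of 8.28, 8.56 and 8.45 in curdlan with FK506 at 4 h, against 9.32, 9.23 and 9.23 in curdlan at 4 h. The levels were 7.11, 6.92 and 7.14 in curdlan with FK506 at 2 h, against 6.89, 6.83 and 6.64 in curdlan at 2 h, and nontreated cells had 7.26, 7.61 and 7.61. Every array of curdlan 4 h was above every other array, and every array of curdlan 2 h was below every other array. The order of the group means, lowest first, was curdlan 2 h, curdlan with FK506 2 h, nontreated, curdlan with FK506 4 h and curdlan 4 h, with no overlap between neighbours.

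Irgm1 and Iigp1 shared a simpler pattern, in which a single group stood apart. Irgm1, a regulatory IRG that restrains effector IRGs on host membranes and takes part in autophagy, had log2 levels of 8.75, 9.04 and 8.85 in curdlan with FK506 at 4 h, against 10.22, 10.19 and 10.09 in curdlan at 4 h. It had 8.63, 8.71 and 8.73 in curdlan with FK506 at 2 h, against 8.74, 8.79 and 8.62 in curdlan at 2 h, and 8.31, 8.85 and 8.93 in nontreated cells. Curdlan 4 h lay above every array of the other 4 groups, whose neighbours in the order of means all overlapped.
Iigp1, an effector IRG that coats the vacuole of Toxoplasma gondii, had log2 levels of 3.90, 3.99 and 3.90 in curdlan with FK506 at 4 h, against 4.39, 4.63 and 4.48 in curdlan at 4 h. The remaining 9 arrays lay between 3.78 and 3.94. Only the curdlan 4 h arrays exceeded 4 on this scale, and all Iigp1 levels lay under the lower quartile of gene means (5.28), where the values give no detection call.

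Gbp7 and Gbp3 did not follow this pattern. Gbp7, a GBP described in mouse macrophages as a helper of oxidase assembly on phagosomes, had log2 levels of 10.31, 10.33 and 10.31 in curdlan with FK506 at 4 h, against 10.38, 10.41 and 10.28 in curdlan at 4 h. It had 10.67, 10.72 and 10.75 in curdlan with FK506 at 2 h, against 10.72, 10.72 and 10.86 in curdlan at 2 h, and 11.24, 11.33 and 11.27 in nontreated cells. The levels fell into 3 ranges by time, with nontreated cells highest and the 4 h groups lowest, and the groups with and without FK506 overlapped at each time.
Gbp3, a GBP of the same chromosomal cluster, had log2 levels of 7.64, 7.77 and 7.75 in curdlan with FK506 at 4 h, against 8.16, 8.24 and 8.09 in curdlan at 4 h. It had 7.76, 7.60 and 7.82 in curdlan with FK506 at 2 h, against 7.66, 7.74 and 7.43 in curdlan at 2 h, and 7.83, 8.09 and 8.26 in nontreated cells. Curdlan 4 h and nontreated cells overlapped, and both lay above the other 3 groups, which overlapped each other. Gbp5, Gbp7 and Gbp3 lie in this order as the first 3 genes of the GBP cluster on chromosome 3 of GRCm38.p6, so genes that lie next to each other had different courses.

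**Figure D2:**
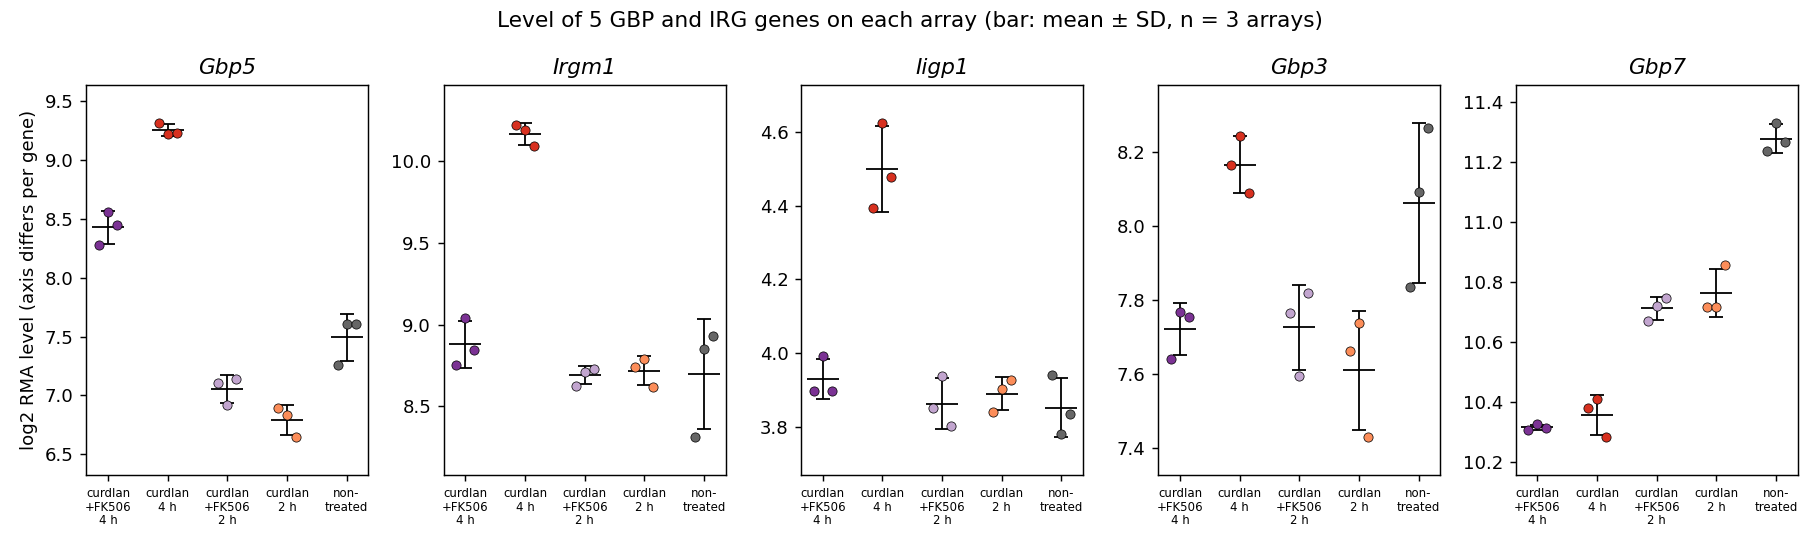
Log2 RMA level of the 5 measured genes on each of 15 arrays, by group (points: arrays; bars: mean ± SD, n = 3; the vertical axis differs per gene). Curdlan 4 h stands above all other groups for Gbp5, Irgm1 and Iigp1, and nontreated cells stand above all others for Gbp7.

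At 2 h, curdlan raised none of these GTPases and lowered Gbp5. A gene passes the test here at a limma adjusted p under 0.05, adjusted over all 19937 genes, if the groups also differ at least 1.5-fold. Of the 5 measured genes, 0 were higher and 1 was lower at 2 h, beside 2.2% of all genes higher and 1.4% lower. Gbp5 averaged 6.79 ± 0.13 in curdlan 2 h and 7.49 ± 0.20 in nontreated cells (SD, n = 3 each), a log2 fold change of -0.70 (SE 0.10, limma adjusted p = 0.000193) or 1.63-fold. Gbp7 and Gbp3 were also below nontreated cells without overlap, at -0.52 (SE 0.050, limma adjusted p = 4.19e-06) and -0.45 (SE 0.10, limma adjusted p = 0.00624), but by less than 1.5-fold. Irgm1 and Iigp1 differed by 0.02 (95% interval -0.26 to 0.30) and 0.04 (-0.10 to 0.18). The median of the 5 log2 fold changes was -0.45, beside -0.04 over all genes. Without the fold threshold 3 of the 5 had a limma adjusted p under 0.05, as did 4004 of all 19937 genes. With single arrays left out Gbp5 ranged from -0.82 to -0.63 and passed each time, and Gbp3 ranged from -0.57 to -0.35. With both outlying arrays left out 444 of all genes were higher and 330 lower, beside 439 and 279.

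At 4 h, curdlan raised Gbp5, Irgm1 and Iigp1 and lowered Gbp7. Thus 3 of 5 were higher and 1 was lower, beside 5.05% of all genes higher and 4.15% lower. Gbp5 averaged 9.26 ± 0.052 in curdlan 4 h and 7.49 ± 0.20 in nontreated cells (SD, n = 3 each), a 3.40-fold rise (log2 1.77, SE 0.10, limma adjusted p = 9.83e-09). Irgm1 averaged 10.17 ± 0.068 in curdlan 4 h and 8.70 ± 0.34 in nontreated cells, a 2.77-fold rise (log2 1.47, SE 0.13, limma adjusted p = 5.52e-07). Without nontreated replicate 1 the Irgm1 value was a log2 fold change of 1.28. Iigp1 rose 1.57-fold (log2 0.65, SE 0.064, limma adjusted p = 1.89e-06), close to the fold threshold, and without curdlan 4 h replicate 2 its log2 fold change of 0.58 no longer passed.
Gbp7 fell by 0.92 on the log2 scale (SE 0.050, limma adjusted p = 4.61e-09), a 1.89-fold lower level, with a narrow spread in both groups. Gbp3 differed by 0.10 (95% interval -0.12 to 0.33), and this changed sign to -0.012 without nontreated replicate 1. The median of the 5 log2 fold changes was 0.65, beside -0.12 over all genes. With each array centred on its median the all-gene median was -0.00825, and 1300 genes were higher and 545 lower, beside 1007 and 828 as deposited.

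Between the times, Gbp5, Irgm1 and Iigp1 were higher at 4 h of curdlan than at 2 h. Gbp5 was 5.53-fold higher (log2 2.47, SE 0.10, limma adjusted p = 2.21e-09), Irgm1 2.73-fold (1.45, SE 0.13, limma adjusted p = 1.57e-06) and Iigp1 1.53-fold (0.61, SE 0.064, limma adjusted p = 7.37e-06). These made 3 of 5 higher, beside 2.79% of all genes, and 0 lower, beside 1.3%. Iigp1 did not pass without curdlan 2 h replicate 1 or without curdlan 4 h replicate 2, where its log2 fold changes were 0.58 and 0.55. Gbp3 was higher by 0.56 (SE 0.10, limma adjusted p = 0.0012) and Gbp7 lower by -0.41 (SE 0.050, limma adjusted p = 3.41e-05), both under 1.5-fold. Gbp3 passed without curdlan 2 h replicate 2 (0.62) or curdlan 4 h replicate 3 (0.59), and with each array centred (0.62).

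FK506 with curdlan lowered Irgm1 and Gbp5 at 4 h and left no member past the test at 2 h. At 4 h 2 of 5 were lower and 0 higher, beside 1.53% of all genes lower and 0.211% higher. Irgm1 averaged 8.88 ± 0.15 in curdlan with FK506 and 10.17 ± 0.068 in curdlan (SD, n = 3 each), 2.44-fold lower with FK506 (log2 -1.29, SE 0.13, limma adjusted p = 1.21e-05). Gbp5 averaged 8.43 ± 0.14 in curdlan with FK506 and 9.26 ± 0.052 in curdlan, 1.78-fold lower (log2 -0.83, SE 0.10, limma adjusted p = 9.23e-05).
Iigp1 was lower by a log2 value of -0.57 (SE 0.064, limma adjusted p = 3.53e-05) without overlap of the groups, just under the fold threshold. It passed without curdlan 4 h replicate 1 (-0.62) or without curdlan with FK506 4 h replicate 2 (-0.60), and also with each array centred on its median (-0.60) or quantile-normalized again (-0.59). Gbp3 was lower by -0.44 (SE 0.10, limma adjusted p = 0.012), also without overlap. Gbp7 differed by -0.042, with a 95% interval of -0.15 to 0.067 that ends short of a 1.5-fold difference on both sides. The median of the 5 was -0.57, beside 0.03 over all genes. With each array centred, 332 genes were lower and 27 higher, beside 306 and 42.

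At 2 h 0 of 5 passed, beside 1.12% of all genes, and 1 of 5 had an unadjusted p under 0.05. This was Gbp5, whose curdlan with FK506 arrays all lay above those of curdlan, by 0.27 (SE 0.10, limma adjusted p = 0.167). Of the other 4, Gbp3 was at 0.12 (95% interval -0.11 to 0.34), Gbp7 at -0.050 (-0.16 to 0.058), Irgm1 at -0.029 (-0.31 to 0.25) and Iigp1 at -0.027 (-0.16 to 0.11). With each array centred, 100 genes were higher and 125 lower with FK506 at 2 h, beside 72 and 152.

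The FK506 effect itself differed between the times for Gbp5 and Irgm1. The difference of effects, 4 h minus 2 h, was -1.10 for Gbp5 (SE 0.15, limma adjusted p = 0.000617) and -1.26 for Irgm1 (SE 0.18, limma adjusted p = 0.00113), so 2 of 5 were lower, beside 1.06% of all genes, and 0 higher, beside 0.171%. Iigp1 had -0.54 (SE 0.090, limma adjusted p = 0.00306), under the fold threshold, which it passed without curdlan 4 h replicate 1 (-0.60), with each array centred (-0.64) and with quantile normalization repeated (-0.62). Gbp3 had -0.56 (SE 0.15, limma adjusted p = 0.0513), which passed without curdlan 2 h replicate 2 (-0.62) or curdlan with FK506 2 h replicate 2 (-0.63). For Gbp7 the difference of effects was 0.0083 (95% interval -0.14 to 0.16). With each array centred, 276 genes were lower and 20 higher in this comparison, beside 212 and 34.

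Set against nontreated cells, curdlan with FK506 at 4 h still left Gbp5 higher and Gbp7 lower. Gbp5 was 1.91-fold higher (log2 0.94, SE 0.10, limma adjusted p = 9.49e-06) and Gbp7 1.95-fold lower (log2 -0.96, SE 0.050, limma adjusted p = 5.72e-09), that is 1 of 5 higher and 1 lower beside 2.95% and 2.43% of all genes. Irgm1 and Iigp1 were at 0.18 (95% interval -0.095 to 0.46) and 0.077 (-0.061 to 0.21), and Gbp3 was at -0.34 (SE 0.10, limma adjusted p = 0.0265). With each array centred, 710 genes were higher and 342 lower, beside 589 and 484. This comparison shares the curdlan with FK506 arrays with the one above and the nontreated arrays with the curdlan comparison.
At 2 h, curdlan with FK506 left 0 of 5 past the test, beside 2.35% of all genes, with 3 of 5 at an unadjusted p under 0.05. Gbp7 was lower by -0.57 (SE 0.050, limma adjusted p = 2.88e-06), near the fold threshold, and without nontreated replicate 1 it passed at -0.59. Gbp5 was at -0.44 (SE 0.10, limma adjusted p = 0.00951) and Gbp3 at -0.34 (SE 0.10, limma adjusted p = 0.041), both under 1.5-fold. Iigp1 was at 0.011 (95% interval -0.13 to 0.15) and Irgm1 at -0.0076 (-0.28 to 0.27). With each array centred, 483 genes were higher and 47 lower in this comparison, beside 361 and 107. Between 4 h and 2 h of curdlan with FK506, 1 of 5 was higher, beside 0.903% of all genes, and 0 were lower, beside 0.782%. This was Gbp5 at 2.59-fold (log2 1.37, SE 0.10, limma adjusted p = 1.06e-06), while Irgm1 differed by 0.19 (95% interval -0.087 to 0.47) and Iigp1 by 0.066 (-0.072 to 0.20). Gbp7 was at -0.40 (SE 0.050, limma adjusted p = 8.2e-05), under 1.5-fold, and Gbp3 at -0.0050 (95% interval -0.23 to 0.22).

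**Figure D3:**
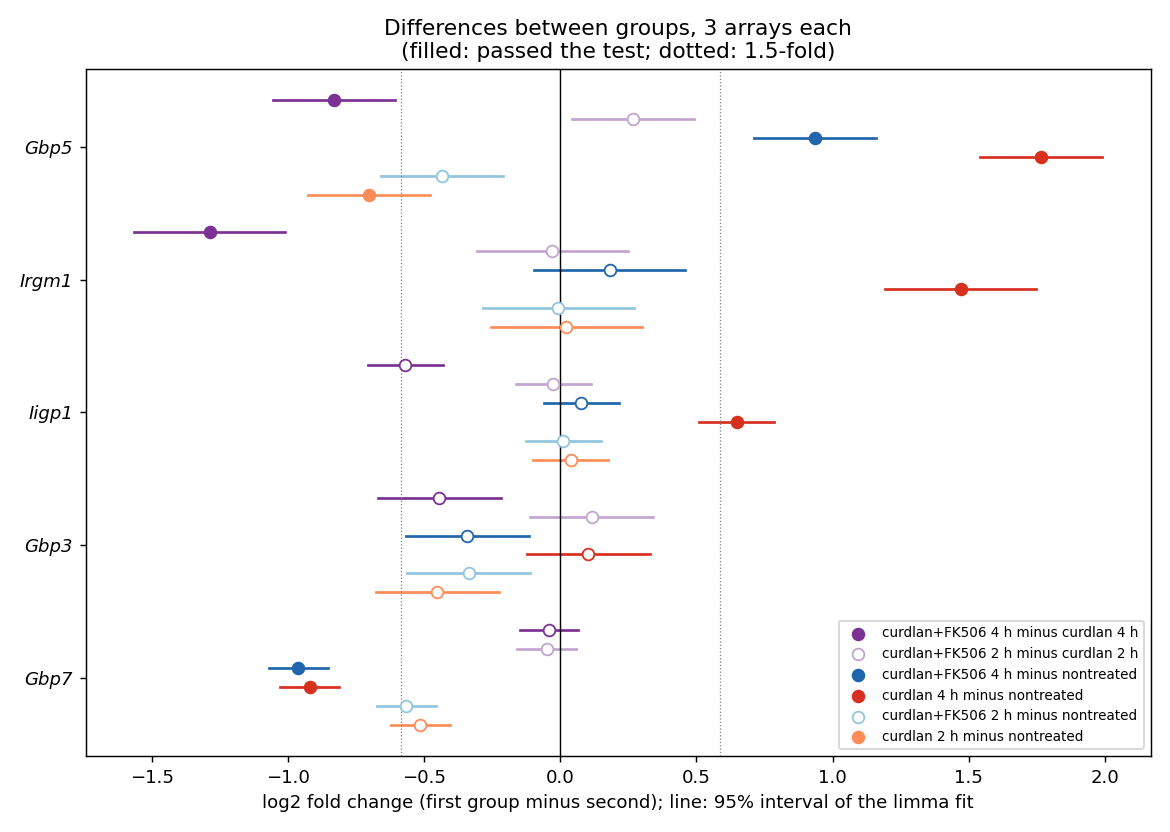
Log2 fold change of the 5 measured genes in 6 comparisons of 3 arrays with 3, with 95% intervals of the limma fit (filled points passed the test, dotted lines mark 1.5-fold). Curdlan at 4 h lies to the right for Gbp5, Irgm1 and Iigp1, FK506 at 4 h lies to the left for the same genes, and for Gbp7 both comparisons of curdlan with FK506 to curdlan lie near 0.

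Of 24 listed symbols of other interferon-inducible GTPases, which include older and newer names of the same gene, 10 were measured. At 2 h of curdlan 3 of the 4 measured GBPs of chromosome 5 were lower. At 2 h 0 of 10 were higher and 4 lower: Gbp8 (-1.13, SE 0.10), Gm12250 (-0.98, SE 0.061), Gbp4 (-0.92, SE 0.076) and Gbp9 (-0.76, SE 0.086), the highest limma adjusted p being 1.69e-05. Gm12250, which encodes the effector IRG Irgb10, averaged 8.05 ± 0.092 in curdlan 2 h and 9.03 ± 0.10 in nontreated cells (SD, n = 3 each). The median of the 10 was -0.40, beside -0.04 over all genes. With curdlan, for this and the lists below, 2.2% of all genes were higher and 1.4% lower at 2 h. At 4 h these shares were 5.05% and 4.15%. With FK506, 0.211% of all genes were higher and 1.53% lower at 4 h, and 1.12% passed either way at 2 h. A count of 0 in a list this short is near such shares.
At 4 h 4 of 10 were higher and 0 lower, with a median of 0.26, beside -0.12 over all genes. They were the dynamin-like antiviral GTPases Mx2 (2.59, SE 0.17) and Mx1 (1.06, SE 0.17) and the IRGs Gm12250 (0.92, SE 0.061) and Gm4951 (0.68, SE 0.11). Gbp4, Gbp8 and Gbp9 were at 0.14, -0.41 and -0.18 and did not pass.

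With FK506, 6 of these 10 were lower at 4 h and 0 higher, beside 1.53% and 0.211% of all genes. Their median was -0.81, beside 0.03 over all genes. The largest log2 differences were Mx2 at -1.95, Gm12250 at -1.44 and Gbp4 at -1.03, followed by Mx1 (-0.82), Gm4951 (-0.82) and Gbp9 (-0.80), with limma adjusted p between 4.45e-09 and 0.00586. Gbp4 averaged 8.40 ± 0.073 in curdlan with FK506 4 h, against 9.43 ± 0.053 in curdlan 4 h (SD, n = 3 each), and 9.29 ± 0.15 in nontreated cells. Thus Gbp4, like Gbp3, had a curdlan 4 h level near that of nontreated cells and a lower one with FK506. At 2 h 0 of 10 passed with FK506, beside 1.12% of all genes, and 3 had an unadjusted p under 0.05. For 8 of 10 the effect of FK506 was more negative at 4 h than at 2 h past the test, beside 1.06% of all genes.

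In the signalling relay that acts on these genes, curdlan raised several IRFs. Of 13 measured genes of the JAK, STAT and IRF list, 2 were higher and 1 lower at 2 h, beside 2.2% and 1.4% of all genes. At 4 h 5 were higher, beside 5.05%. Irf8, a factor of dendritic cell identity that binds composite ISRE sites, rose by 1.59 at 2 h and 2.40 at 4 h on the log2 scale (SE 0.043). Irf1, which drives GBP promoters, rose by 0.81 and 1.06 (SE 0.048). These were the genes of the list higher at 2 h, while Stat2, a subunit of the ISRE-binding complex, fell by 0.83 at 2 h (SE 0.042).
At 4 h Irf7 (1.56, SE 0.083), Batf2 (0.64, SE 0.045) and Irf9 (0.59, SE 0.088) also rose, and Stat2 was at 0.58, just under the fold threshold. With FK506 at 4 h, 3 of the 13 were lower: Irf7 (-1.38, SE 0.083), Irf1 (-0.72, SE 0.048) and Batf2 (-0.67, SE 0.045), with limma adjusted p of at most 3.23e-07. Irf9 and Stat2 were at -0.56 and -0.55 and Irf8 at -0.50, each with a limma adjusted p under 0.05 but under 1.5-fold. At 2 h 0 of 13 passed with FK506, 6 having an unadjusted p under 0.05, among them Irf1 at -0.38.

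No measured interferon transcript passed the test with curdlan at either time. Of 14 measured interferon and receptor genes, 0 passed with curdlan at 2 h, 5 having an unadjusted p under 0.05, and 1 at 4 h, the receptor chain Il10rb (0.90, SE 0.098). Ifnb1, interferon-beta, was at -0.049 (SE 0.14) at 2 h and -0.25 (SE 0.14) at 4 h with curdlan, and at -0.095 (SE 0.14) with FK506 at 4 h. Its group means lay between 4.95 and 5.30, near the lower quartile of gene means (5.28), where the values give no detection call. Ifng averaged 5.80 ± 0.071 in curdlan with FK506 4 h and 6.49 ± 0.041 in curdlan 4 h (SD, n = 3 each), lower with FK506 by -0.69 (SE 0.095, limma adjusted p = 0.000217), the 1 gene of the list to pass there. Against nontreated cells (5.98 ± 0.23) Ifng was at 0.51 in curdlan 4 h (SE 0.095, limma adjusted p = 0.000712), under 1.5-fold. In curdlan 2 h it was at 0.37 (SE 0.095, limma adjusted p = 0.012), also under 1.5-fold. Ifng averaged 5.88 ± 0.12 in curdlan with FK506 2 h and 6.35 ± 0.073 in curdlan 2 h.
Of 7 brakes on interferon signalling, Socs3 rose at both times (2.33 and 2.00, SE 0.066) and Ptpn2 at 4 h (0.71, SE 0.14), 0 were lower, and 0 passed with FK506 at either time, with 2 at an unadjusted p under 0.05 each time. Socs1, the main brake on interferon-gamma receptor signalling, was at -0.0074 and -0.11 (SE 0.063).

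Among other interferon-responsive genes, most of those typical of type I interferon moved at 4 h and fewer of those typical of interferon-gamma did, a difference between lists that was not tested. Of 19 measured antiviral genes, 17 rose with curdlan and 17 fell with FK506 at 4 h, beside 5.05% and 1.53% of all genes. Their medians were 1.40 and -1.10, beside -0.12 and 0.03 over all genes. Of 20 genes typical of the interferon-gamma response, 6 were higher and 5 lower in these comparisons, with medians of 0.12 and -0.071. Of the first list, Rsad2 was at 3.60 (SE 0.11) with curdlan and -1.89 (SE 0.11) with FK506 at 4 h, and Ifit1 at 3.41 (SE 0.16) and -1.94 (SE 0.16). Of the second list, the T cell chemokines Cxcl10 and Cxcl9 changed most with curdlan at 4 h, Cxcl10 by 3.99 (SE 0.077) and Cxcl9 by 3.96 (SE 0.085). With FK506 at 4 h Cxcl9 was at -3.68 (SE 0.085) and Cxcl10 at -1.49 (SE 0.077). The 17 that rose with curdlan were the 17 that fell with FK506, in comparisons that share the curdlan 4 h arrays. At 2 h of curdlan 2 of the 19 were higher, Rsad2 (1.13) and Ifih1 (1.03), and 0 lower. Of the 20, 3 were higher at 2 h, among them Cxcl10 (2.81) and Cxcl9 (1.17), and 2 lower. All genes had 2.2% higher and 1.4% lower there. With FK506 at 2 h 1 of the 19 was lower and 0 higher. Of the 20, 2 were lower and 1 higher, beside 1.12% of all genes either way.

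**Figure D4:**
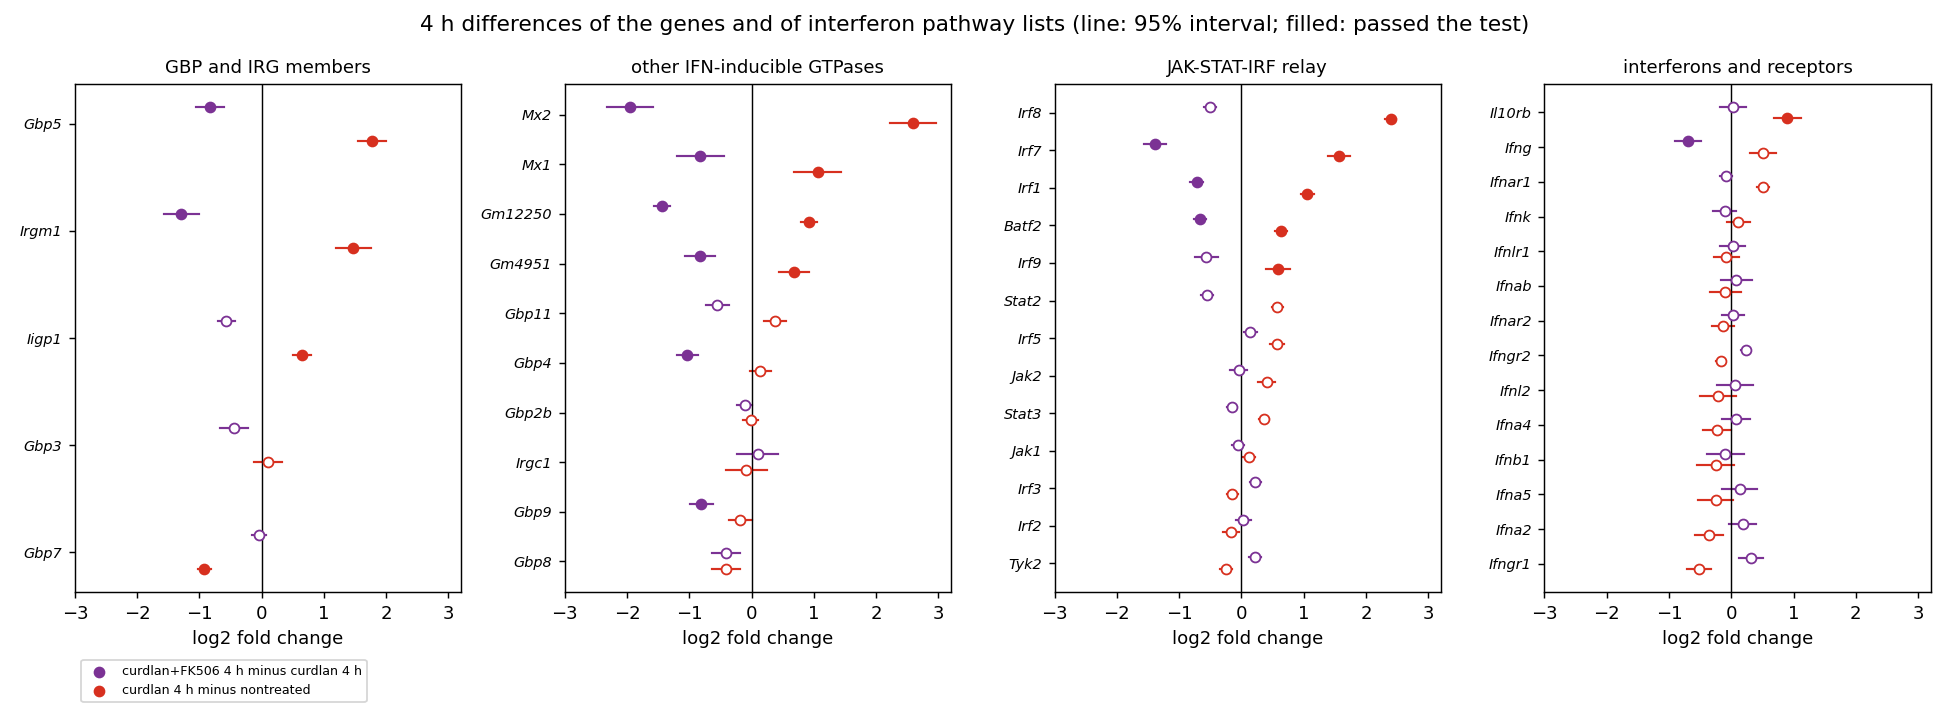
Log2 fold change at 4 h with 95% intervals for the measured genes, other interferon-inducible GTPases, JAK-STAT-IRF genes, and interferons with their receptors (upper point of each gene: curdlan with FK506 minus curdlan; lower point: curdlan minus nontreated; filled points passed the test). Of the interferon genes only Ifng has a filled point, with FK506, while Irf7, Irf1 and Batf2 lie right with curdlan and left with FK506, as do Gbp5 and Irgm1.

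Among genes that work with GBPs and IRGs at vacuoles, Sqstm1 and Traf6 rose at both times. Of 17 measured partners in loading and lysis, 2 were higher and 1 lower at 2 h, beside 2.2% and 1.4% of all genes. At 4 h 3 were higher, beside 5.05%, and 1 was lower with FK506, beside 1.53%. Sqstm1, the ubiquitin-binding autophagy receptor p62, rose by 1.14 and 1.54 (SE 0.040) at 2 h and 4 h, Traf6, a ubiquitin ligase, by 0.81 and 0.82 (SE 0.053), and Gabarapl1, an Atg8 protein that conjugation places on vacuoles, by 0.93 at 4 h (SE 0.14). Trim21, a cytosolic antibody receptor and ubiquitin ligase, fell by 0.81 at 2 h (SE 0.070) and was lower with FK506 at 4 h by -0.60 (SE 0.070, limma adjusted p = 4.98e-05). Of the 6 prenylation enzymes 0 passed with curdlan or with FK506 at either time, which is near the shares of all genes. At an unadjusted p under 0.05 they numbered 0 at 2 h and 2 at 4 h with curdlan, and 1 at each time with FK506.

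Of 9 inflammasome genes, 3 were higher with curdlan at each time, beside 2.2% of all genes at 2 h and 5.05% at 4 h. With FK506 2 were lower at 4 h, beside 1.53%. Il1b, the cytokine that inflammasomes process, had the largest change with curdlan, rising by 4.22 at 2 h and 4.68 at 4 h (SE 0.19), with FK506 values of -0.12 and -0.38 that did not pass. Casp4, the caspase that senses lipopolysaccharide released by GBPs (caspase-11 in mouse), averaged 8.45 ± 0.042 in curdlan with FK506 4 h, against 9.71 ± 0.033 in curdlan 4 h and 6.66 ± 0.22 in nontreated cells (SD, n = 3 each). It rose by 1.87 and 3.05 with curdlan at 2 h and 4 h (SE 0.11) and was lower with FK506 by -0.70 at 2 h and -1.26 at 4 h (limma adjusted p = 0.00108 and 4.15e-06). Nlrp3, the sensor whose assembly Gbp5 promotes, rose by 0.91 and 0.74 (SE 0.068), with FK506 values of 0.15 and -0.027 that did not pass. Pycard, the adaptor of these complexes, fell by 0.94 with curdlan at 4 h (SE 0.060), and Il18 was lower with FK506 at 4 h by -0.89 (SE 0.082).

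Across the 15 arrays, Iigp1 and Irgm1 were the members most alike. Their Pearson r was 0.92, that of Gbp5 with Irgm1 was 0.85 and that of Gbp5 with Iigp1 was 0.78, while Gbp7 had r of -0.61, -0.53 and -0.52 with Gbp5, Iigp1 and Irgm1. Gbp3 had r of 0.62, 0.54 and 0.68 with Gbp5, Iigp1 and Irgm1 and 0.11 with Gbp7. These values describe 15 arrays in 5 groups of 3, which share their treatments and normalization, and carry no test.

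Among 805 genes whose group means span at least 1 log2 unit, those most like the mean z-score of the 5 members were Gm12250 (r = 0.97), Oas2 (0.97), Ddx60 (0.95), Oasl2 (0.95), Rtp4 (0.94), Il15 (0.93), Rnf213 (0.93), Ifit1bl2 (0.93), Trim21 (0.92) and Gm12185 (0.91). They were chosen for this likeness over the same arrays, so their changes are not given here as results. Gm12250 and Trim21 are also on the gene lists above, where their changes are given. Oas2, Oasl2 and Rtp4 are on the antiviral list above and enter its counts. Taken singly, the nearest genes were Slfn8 and Ifit2 for Irgm1 (r = 0.99 and 0.98), Olr1 and Pla2g4f for Iigp1 (0.97 and 0.97), and Zfp874b and Hbp1 for Gbp5 (0.98 and 0.98).
Gbp7 was nearest to Tbc1d31 and Enc1 (r = 0.99 and 0.98), and Gbp3 to Trim21 and Gbp4 (0.90 and 0.88).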

How the data were processed

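The authors deposited log2 intensities for 15 arrays, made by RMA, which corrects background, quantile-normalizes the arrays and summarises the probes of a set by median polish, with the affy package in R 2.15.2, per the labels. Of 34760 probe sets, 21640 carry 1 symbol in the platform annotation, 1321 several and 11799 none. Only the first were used, and of the 954 genes on more than 1 of them the brightest on average was kept, which left 19937 genes. Quantile normalization would hide a shift of all genes, and hybridization of a probe to a near-identical paralog was not checked. limma 3.58.1 (R 4.3.3) fitted 1 mean per group to all 15 arrays (10 residual degrees of freedom) with empirical Bayes moderation, two-sided tests and Benjamini-Hochberg adjustment over all genes. A call needs an adjusted p under 0.05 and a fold change of at least 1.5 (log2 0.58). FK506 effects are curdlan with FK506 minus curdlan. The fit was tested on simulated data. The number of arrays limits the precision.

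All measured members are named in every comparison. Counts of list genes at an unadjusted p under 0.05 have no share of all genes beside them, since none was computed at that threshold. They are not results about a list. From other lists some of the called genes with the largest change are named, up to 5 for most lists, besides a set of IRF, STAT, interferon and Socs genes. Gbp9 with FK506, and Il1b, Nlrp3, Gbp4, Gbp8 and Gbp9 where uncalled, were picked after their values were seen. Likeness was the Pearson r over 15 arrays. The members and lists were chosen with earlier results of these data known. Replicate numbers did not pair the arrays: in 0 of 8 comparisons did every same-numbered pair deviate together (correlations between -0.73 and 0.58). Several list genes lack a probe set with 1 symbol and are not analysed here. Alternatives are given in the closing section.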

Additional observations from a re-analysis of the deposited data

Results flagged for a closer look

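The FK506 effect differed between the times for Gbp5 (log2 difference of effects, 4 h minus 2 h, -1.10, limma adjusted p = 0.000617), Irgm1 (-1.26, 0.00113) and Iigp1 (-0.54, 0.00306), the last under 1.5-fold. In Irgm1 and Iigp1 the 4 h effect of FK506 was negative and the 2 h effect was near 0. In Gbp5 the 4 h effect was also negative, and the 2 h value was 0.27, which did not pass the test (limma adjusted p = 0.167).

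All 5 measured genes had a limma adjusted p under 0.05 between 4 h and 2 h of curdlan (between 2.21e-09 and 0.0012), as did 5191 of all 19937 genes. The log2 values were 2.47 for Gbp5, 1.45 for Irgm1 and 0.61 for Iigp1, which passed the test, and 0.56 for Gbp3 and -0.41 for Gbp7, which were under 1.5-fold. With FK506 present, Gbp5 passed (1.37, limma adjusted p = 1.06e-06) and Gbp7 was under 1.5-fold (-0.40, limma adjusted p = 8.2e-05), where 2788 of all genes had an adjusted p under 0.05. The value for Gbp7 was near that without FK506, and the value for Gbp5 was lower than without FK506. Groups of 3 arrays are too small for a search for single outlying values.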

How the results depend on the processing

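Of the counts of members past the test, 163 of 177 values under other settings stayed within 1.5 times of the reported one. These counts can only run from 0 to 5, and a 0 that stayed 0 was taken as within. Without a fold threshold the members called were 3 with curdlan at 2 h, 4 with FK506 at 4 h, 3 for curdlan with FK506 at 2 h against nontreated, 5 for curdlan 4 h against 2 h, and 2 for curdlan with FK506 4 h against 2 h. With a fold of at least 2 they were 0 with curdlan at 2 h, 2 with curdlan at 4 h, 1 with FK506 at 4 h and 0 for curdlan with FK506 4 h against nontreated. Array weights gave 2 with curdlan at 2 h, where Gbp7 passed (-0.60). For curdlan with FK506 at 2 h against nontreated, 1 member (Gbp7) passed with repeated quantile normalization, with array weights and with both outlying arrays left out, and between 0 and 1 when arrays were left out singly. Left out singly, the other counts were 3 to 4 with curdlan at 4 h, 2 to 3 with FK506 at 4 h, 2 to 4 for 4 h against 2 h and 2 to 3 for the difference of FK506 effects. Iigp1 was not tested among genes above the median level.

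Sign changes fell on values that passed nowhere. Centring each array turned FK506 at 2 h to 0.019 (Gbp7), 0.042 (Iigp1) and 0.040 (Irgm1), curdlan with FK506 at 2 h against nontreated to 0.10 (Irgm1) and the difference of FK506 effects to -0.092 (Gbp7). Repeated quantile normalization gave 0.023 for Iigp1 with FK506 at 2 h and 0.031 for Gbp3 between the times with FK506. Array weights gave -0.11 for Irgm1 with curdlan at 2 h, 0.00928 for Iigp1 with FK506 at 2 h and -0.031 for the Gbp7 difference of effects. With both outlying arrays out, Irgm1 was at -0.12 with curdlan at 2 h and -0.011 for curdlan with FK506 4 h against nontreated, Gbp3 at -0.012 with curdlan at 4 h, and the Gbp7 difference at -0.038. With single arrays left out the ranges were -0.17 to 0.14 (Irgm1) with curdlan at 2 h, -0.012 to 0.20 (Gbp3) with curdlan at 4 h, -0.064 to 0.0036 (Iigp1) and -0.078 to 0.0073 (Irgm1) with FK506 at 2 h, -0.026 to 0.055 (Iigp1) and -0.20 to 0.11 (Irgm1) for curdlan with FK506 2 h against nontreated, -0.011 to 0.30 (Irgm1) for the same at 4 h, -0.070 to 0.041 (Gbp3) between the times with FK506, and -0.038 to 0.034 (Gbp7) for the difference of effects. The cause of these changes was not tested.

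With the replicate number as a block, the members called were the same in number in all 9 comparisons (1 with curdlan at 2 h, 4 at 4 h, 0 and 2 with FK506), and all genes called numbered 1834 with curdlan at 4 h and 347 with FK506 at 4 h, beside 1835 and 348. Counts over all genes moved by over 1.5 times with no fold threshold (7432 with curdlan and 2327 with FK506 at 4 h, 4004 and 1509 at 2 h, 5175 and 3515 for curdlan with FK506 against nontreated at 4 h and 2 h, 5191 for curdlan 4 h against 2 h, 2788 for the same times with FK506 and 872 for the difference of effects), with a fold of at least 2 (640, 117, 246, 68, 318, 173, 233, 62 and 65 for these 9 comparisons in the same order), and with all probe sets tested (3464 with curdlan at 4 h and 1088 at 2 h, 1760 and 923 for curdlan with FK506 against nontreated at these times, and 1711 for curdlan 4 h against 2 h).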
